A study of Mus musculus with 11 samples.

Results

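A set of 5 platelet-associated genes was followed through deletion of 3 histone demethylase genes in mouse leukaemia cells: Tubb1, Gp9, Pf4 and Itga2b, which megakaryocytes and platelets express, and F13a1, which encodes the A subunit of coagulation factor XIII. Probes were taken by gene name, as every probe whose RefSeq accession on the array belongs to 1 of these genes, whatever its signal. The names themselves were chosen with earlier results of these data known, so counts and medians of the set are descriptions. That gave 5 genes among 25082 genes or unnamed features tested, and 6 probes among 55681. The cells were L-GMP, leukaemic granulocyte-macrophage progenitors that carry the MLL-AF9 fusion oncogene, in 4 lines taken from leukaemic mice of the C57BL/6 background. All of them, at every time, carried loxP-flanked Kdm4a, Kdm4b and Kdm4c (Jmjd2a/b/c f/f) and a Cre recombinase fused to the tamoxifen-responsive oestrogen receptor at Rosa26 (Rosa26::CreERT2), and grew with 20% fetal bovine serum and 10 ng/ml IL-3. The groups were cells before 4-hydroxytamoxifen (0 h, 4 arrays), and cells after 48 h (4 arrays) and 96 h (3 arrays) in 500 nM 4-hydroxytamoxifen, which activates the recombinase. No drug-treated cells lacking the floxed alleles, and no untreated cells of later times, were analysed here. Effects of the drug, the active recombinase, time in culture and loss of the 3 genes therefore cannot be told apart.

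Signals are given as scaled log2 signal, the log2 of the array's processed Cy3 intensity minus that array's 75th percentile, so that 0 lies at the 75th percentile. A spot was well above background where the scanner software flagged it so. Signal left from the floxed genes at 48 h and 96 h, relative to 0 h, was 33.1% and 43.5% for Kdm4a, 10.1% and 10.5% for Kdm4b, and 3.23% and 4.12% for Kdm4c. The 8 arrays of 0 h and 48 h shared 1 slide and the 3 arrays of 96 h lay on another, so slide and 96 h cannot be told apart. On the 96 h replicate 1 array 75.8% of spots were well above background, against 50.2% to 64.7% on the other 10, and differences of the 5 genes at 96 h against 0 h are given with and without it. All 10 granulocyte-monocyte progenitor markers, Mpo and Elane among them, passed the filter on dim probes (well above background on at least 3 arrays), with a mean level per array of 4.66 to 6.24. Of 14 megakaryocyte and platelet markers, 9 were well above background on all 11 arrays. Gp1ba was so on 0 arrays, Gp6 on 2, Gp5 on 3, Tubb1 on 3 and Treml1 on 10.

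Megakaryocytes bud platelets from long extensions whose shafts are built from microtubules, and load them with adhesion receptors and with granules of clotting proteins and chemokines. Gp9, with the products of Gp1ba, Gp1bb and Gp5, forms the receptor for von Willebrand factor, while Itga2b pairs with Itgb3 into the fibrinogen receptor. Factor XIII is a transglutaminase that cross-links fibrin. Its A subunit is made in megakaryocytes and also in monocytes and macrophages, so F13a1 is not specific to the platelet lineage. The arrays measured RNA of whole cultures, in which fewer cells expressing a gene and less RNA per cell cannot be told apart.

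Gp9 was higher after 4-hydroxytamoxifen at both times, Tubb1 was called higher at both but lay near background, and F13a1 was highest at 48 h, past the test with paired arrays but not in the unpaired fit of all arrays. Itga2b showed no difference past the test. Called means an adjusted p below 0.05 in limma's moderated test, adjusted over all features. At 48 h against 0 h, 2 of the 5 genes were called, Tubb1 and Gp9, both higher, where 18.6% of all 25082 features were called, 10.4% higher and 8.16% lower. Tubb1 passed the filter on dim probes only through its treated arrays, so its call is a description and not support for the set, and it was not called with normexp background correction or in the authors' deposited table. At 96 h against 0 h the same 2 genes were called higher, where 9.54% of all features were called, 6.11% higher and 3.43% lower. No member was called at 96 h against 48 h, where 11.3% of features were called, 5.27% higher and 6% lower; none had an unadjusted p under 0.05 either, the smallest being 0.0981 for F13a1. As a description, the median difference of the 5 genes was 1.46 for 48 h against 0 h, 1.15 for 96 h against 0 h and 0.26 for 96 h against 48 h, while that of all features was 0.12, 0.11 and 0.04 in that order. Scaling to each array's median in place of the 75th percentile moved the medians of all features to -0.11, -0.28 and -0.12, and turned 2613 higher and 2046 lower calls at 48 h against 0 h into 419 higher and 1933 lower. The labels do not say which array came from which line, and the p-values measure only the spread between these arrays, whose number limits the precision.

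**Figure D1:**
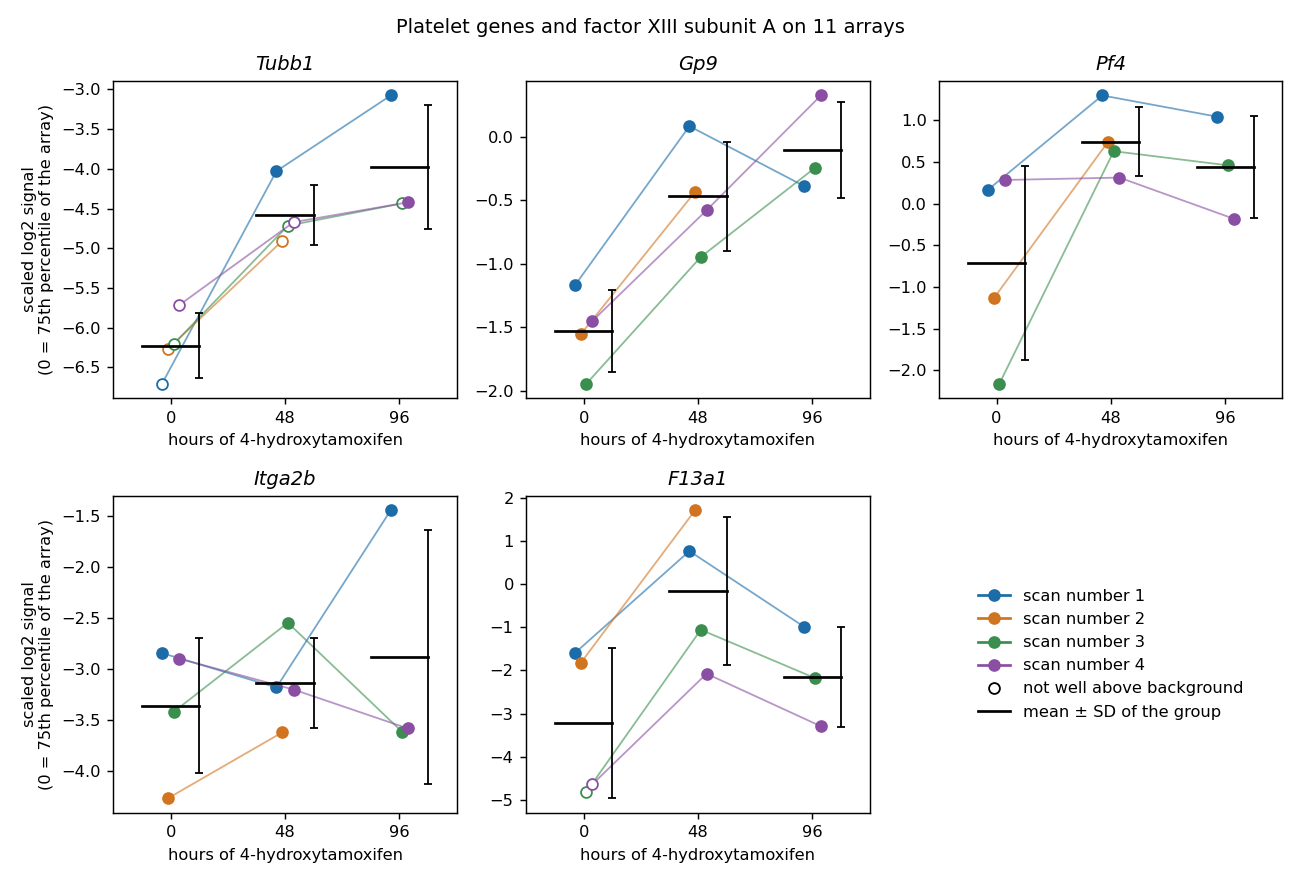
Scaled log2 signal (y axes, 0 at the array's 75th percentile, each gene on its own range) at 0, 48 and 96 hours of 4-hydroxytamoxifen (x axes) for each array. Lines join arrays with the same scan number, open circles mark arrays where the probe was not well above background, and bars give the group mean ± SD. All 48 h and 96 h points of Tubb1 and Gp9 lie above all their 0 h points. Each F13a1 line rises from 0 h to 48 h, by 2.36 to 3.76.

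Tubb1 encodes the beta-tubulin isotype of the platelet's marginal band. Its probe (A_66_P126159) was dim, and was well above background on 0 of 4 arrays at 0 h, 1 of 4 at 48 h (replicate 1) and 2 of 3 at 96 h. Its scaled log2 signal was -6.70, -6.27, -6.21 and -5.72 at 0 h, -4.03, -4.91, -4.72 and -4.67 at 48 h, and -3.08, -4.44 and -4.42 at 96 h. Every array after the drug lay above every 0 h array, as held with 48 h higher for 13.8% of all features and with 96 h higher for 16.3%; groups did not overlap in either direction for 23.7% and 25.1%. At 48 h against 0 h the fitted log2 difference was 1.64 ± 0.33 (SE, limma adjusted p = 0.0108). Neither the 0 h values nor those of 48 h replicates 2, 3 and 4 were well above background, so the size of that difference was not measured and no fold is given. At 96 h the fitted difference was 2.25 ± 0.36 (limma adjusted p = 0.0104), and without 96 h replicate 1 it was 1.80 (adjusted p = 0.0221). The 96 h mean was at least 1.79-fold higher than the dimmest signals well above background on the 0 h arrays, with 96 h replicate 2 itself not well above background. With normexp background correction, which compresses dim signals, the differences were 0.10 (adjusted p = 0.288) and 0.14 (adjusted p = 0.171), and a fit of the 0 h and 96 h arrays alone with the arrays paired by scan number, as described for F13a1, gave 2.23 (adjusted p = 0.10).

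Gp9 encodes glycoprotein IX, the small subunit of the von Willebrand factor receptor, and its probe (A_51_P153995) was well above background on all 11 arrays. The values were -1.17, -1.56, -1.95 and -1.45 at 0 h, 0.09, -0.43, -0.95 and -0.58 at 48 h, and -0.39, -0.24 and 0.33 at 96 h. No 48 h or 96 h array overlapped the 0 h arrays. Gp9 averaged -0.47 ± 0.43 at 48 h (SD, n = 4 arrays) and -1.53 ± 0.32 at 0 h (SD, n = 4), a log2 difference of 1.06 ± 0.25 (SE) or 2.09-fold (limma adjusted p = 0.0176). It averaged -0.10 ± 0.38 at 96 h (SD, n = 3), 1.43 ± 0.27 (SE) or 2.70-fold higher than at 0 h (limma adjusted p = 0.0156), and 1.57 higher without 96 h replicate 1 (adjusted p = 0.0325). The 48 h call was lost with scaling to each array's median (0.84, adjusted p = 0.0691). Without 96 h replicate 3 the call at 96 h was lost (1.22, adjusted p = 0.0512), as it was in a blocked fit of the 0 h and 96 h arrays alone (1.42, adjusted p = 0.0816), in which 2 features in all were called.

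The stretches before the transcription starts of both genes that were called are shown here because platelet genes are typically bound by GATA and ETS factors, such as GATA1 and FLI1. The sequences are RefSeq's, build GRCm38.p6, the 250 bases before the start, and capitals mark GATAA or AGGAAG on either strand (which do not overlap each other). Tubb1 lies at chr2:174450345-174450594 and Gp9 at chr6:87777820-87778069, both on the plus strand.
Tubb1: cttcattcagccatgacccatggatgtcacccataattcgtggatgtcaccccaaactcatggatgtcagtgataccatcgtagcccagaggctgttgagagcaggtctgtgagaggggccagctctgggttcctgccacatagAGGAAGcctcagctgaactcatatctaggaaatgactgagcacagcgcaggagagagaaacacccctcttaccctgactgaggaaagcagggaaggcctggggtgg
Gp9: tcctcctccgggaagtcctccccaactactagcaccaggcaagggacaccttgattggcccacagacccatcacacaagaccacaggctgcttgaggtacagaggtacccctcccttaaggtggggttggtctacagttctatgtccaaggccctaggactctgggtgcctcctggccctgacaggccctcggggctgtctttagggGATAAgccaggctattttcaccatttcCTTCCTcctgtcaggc
Tubb1 held 1 AGGAAG, beginning 106 bases before the start, and no GATAA. Gp9 held GATAA 43 bases before the start and AGGAAG, on the opposite strand, 16 bases before it. Across 32851 such stretches of all genes, 22.6% held GATAA, 29.5% held AGGAAG and 6.58% held both. A match is a run of letters and not evidence of binding. Pf4 held 1 AGGAAG and no GATAA, and Itga2b held 2 and no GATAA.

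Pf4 encodes platelet factor 4, a chemokine stored in alpha granules. Its probe (A_51_P441426) was well above background on all 11 arrays, with 0.17, -1.14, -2.16 and 0.28 at 0 h, 1.30, 0.74, 0.63 and 0.31 at 48 h, and 1.04, 0.46 and -0.18 at 96 h. The 48 h arrays all lay above the 0 h arrays, though the gap between the lowest 48 h and the highest 0 h array was small. The difference at 48 h against 0 h was 1.46 ± 0.52 (SE), 2.75-fold, with a 95% interval of 0.31 to 2.60, and it did not pass the test (limma adjusted p = 0.0744). It was 1.15 ± 0.56 at 96 h against 0 h (adjusted p = 0.204; 0.85 without 96 h replicate 1, adjusted p = 0.455) and -0.30 ± 0.56 at 96 h against 48 h (adjusted p = 0.762). The 48 h difference lay close to the threshold: it passed narrowly with normexp correction (0.98, adjusted p = 0.0499) and where only probes bright on all arrays were tested (1.46, adjusted p = 0.046). Without 0 h replicate 3, the lowest array, it was 0.98 (adjusted p = 0.146), and without 96 h replicate 3 the difference at 96 h against 48 h was 0.01.

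Itga2b encodes integrin alpha IIb (CD41), an early marker of the megakaryocyte lineage that some stem and progenitor cells also carry. Its probe (A_52_P459564) was well above background on all 11 arrays. The values were -2.84, -4.27, -3.42 and -2.90 at 0 h, -3.18, -3.62, -2.55 and -3.20 at 48 h, and -1.44, -3.62 and -3.58 at 96 h. All 3 groups overlapped, and 96 h replicate 1 stood apart from the other 96 h arrays. The difference was 0.22 ± 0.50 (SE) at 48 h against 0 h (limma adjusted p = 0.782), with a 95% interval of -0.89 to 1.33. For 96 h against 0 h it was 0.48 ± 0.54 (adjusted p = 0.590), with an interval of -0.72 to 1.68. Its direction was not settled: without 96 h replicate 1 the 96 h difference was -0.24, and without 0 h replicate 2 the 48 h difference was -0.08. No difference was detectable with this number of arrays.

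Of the 5 genes, F13a1 had the widest spread between arrays of 0 h and of 48 h and the largest difference between them. Its measured probe (A_51_P507801) was well above background on 2 of 4 arrays at 0 h (replicates 1 and 2), and on all arrays at 48 h and 96 h. Its second probe (A_55_P2186125) was well above background on 0 of 11 arrays, with values between -7.36 and -5.00, and was not tested. The first probe read -1.59, -1.83, -4.81 and -4.64 at 0 h, 0.77, 1.72, -1.06 and -2.07 at 48 h, and -0.98, -2.18 and -3.29 at 96 h. Replicates 1 and 2 were higher than replicates 3 and 4 at both 0 h and 48 h, so the groups overlapped although each replicate number was higher at 48 h than at 0 h. F13a1 averaged -0.16 ± 1.72 at 48 h (SD, n = 4) and -3.22 ± 1.75 at 0 h (SD, n = 4), a difference of 3.06 ± 1.01 (SE) that did not pass the test without a block (limma adjusted p = 0.0604). With 2 of the 4 values at 0 h not well above background, no fold is given for the means.

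The deposited scans carry numbers, 1 to 4 at 0 h and 48 h and 1, 3 and 4 for 96 h replicates 1, 2 and 3, and arrays with the same number deviated together from their group means in all 10 pairs. With that number as a block, the 48 h difference stayed at 3.06 with an SE of 0.31 and passed the test (limma adjusted p = 0.00562). It lay between 2.36 and 3.76 in the 4 pairs. In numbers 1 and 2, where both arrays were well above background, F13a1 was 5.14-fold and 11.7-fold higher at 48 h, while in numbers 3 and 4 the 0 h array was not. In this blocked fit 3 of the 5 genes were called at 48 h against 0 h, where 21.5% of all features were, and 3 of 5 at 96 h against 0 h, where 14% were. Leaving out any 1 array in turn kept the blocked 48 h call (2.76 to 3.35, adjusted p 0.00905 to 0.0316). Without a block, leaving out 0 h replicate 2 gave 3.52 (adjusted p = 0.0472) and array weights gave 3.38 (adjusted p = 0.0362), the unpaired fits that passed.

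At 96 h F13a1 lay between its levels at 0 h and 48 h for each of the 3 scan numbers. In the blocked fit it was 1.61 ± 0.35 (SE) higher at 96 h than at 0 h (limma adjusted p = 0.0301; 0.61 to 2.64 in 3 of 3 pairs). It was lower at 96 h than at 48 h by a log2 difference of -1.44 ± 0.35 (limma adjusted p = 0.0412), with 3 of 3 pairs between -1.75 and -1.12; 12.3% of all features were called in that blocked comparison. Without the block neither difference passed the test (1.07, adjusted p = 0.548, and -1.99, adjusted p = 0.266), and the first was 0.48 without 96 h replicate 1 (adjusted p = 0.853). The blocked call at 96 h against 0 h was lost without 0 h replicate 3 (1.27, adjusted p = 0.0718), 0 h replicate 4 (1.76, 0.0642), 48 h replicate 3 (1.62, 0.0505), 96 h replicate 2 (1.28, 0.106) or 96 h replicate 3 (1.62, 0.0969). Without 96 h replicate 1 it was 1.94 (adjusted p = 0.0497). The blocked call at 96 h against 48 h was lost in 9 of 11 such fits, with differences from -1.78 to -1.12. Both blocked 96 h calls also depended on the processing. With the block kept, the difference at 96 h against 0 h was 1.36 with quantile normalization (adjusted p = 0.0523), 0.56 with normexp correction (adjusted p = 0.251), 0.57 in the authors' deposited table (adjusted p = 0.25) and 1.61 without a filter (adjusted p = 0.0686). The call at 96 h against 48 h was lost with the last 3 of these. Blocked fits of only the groups compared gave 1.53 at 96 h against 0 h (adjusted p = 0.12) and -1.36 at 96 h against 48 h (adjusted p = 0.0747), where 2 and 0 features were called.

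**Figure D2:**
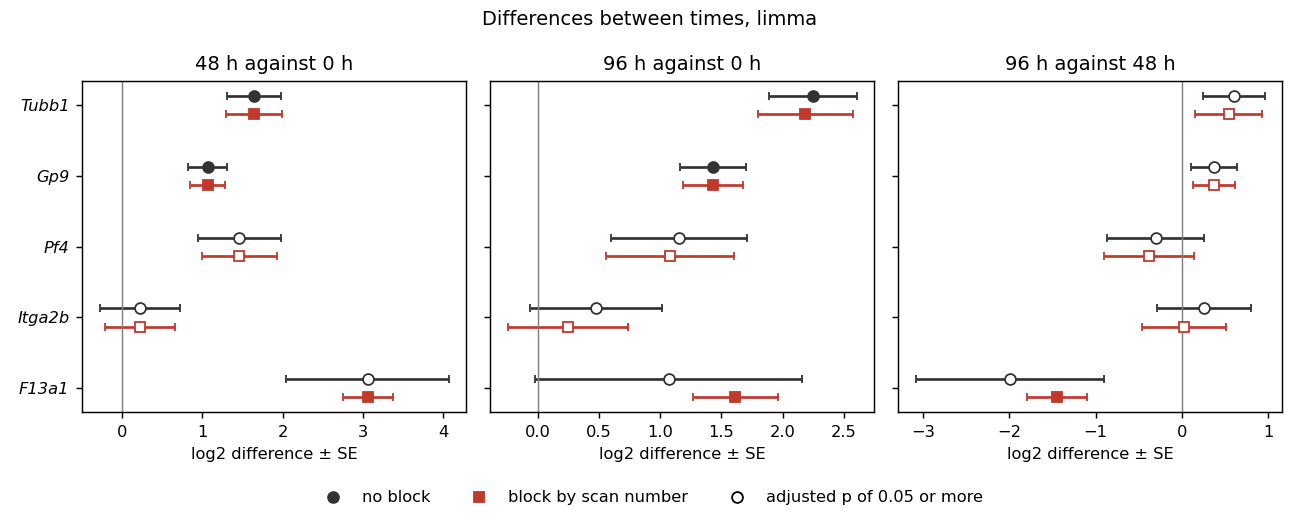
Log2 difference ± SE (x axes) of each gene (rows) in the 3 comparisons of times (panels), without a block (circles) and with the scan number as a block (squares); open symbols have an adjusted p of 0.05 or more. The block leaves Tubb1 and Gp9 nearly in place and narrows the error of F13a1 at 48 h against 0 h, which has an SE of 1.01 without it and 0.31 with it.

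RefSeq gives F13a1 2 transcription starts on chromosome 13, both on the minus strand and the 250 bases before each are shown, as the gene with the largest difference at 48 h. The downstream start has chr13:37049214-37049463 before it and the upstream start chr13:37050245-37050494 (GRCm38.p6, printed on the gene's strand, capitals as above).
F13a1 downstream start: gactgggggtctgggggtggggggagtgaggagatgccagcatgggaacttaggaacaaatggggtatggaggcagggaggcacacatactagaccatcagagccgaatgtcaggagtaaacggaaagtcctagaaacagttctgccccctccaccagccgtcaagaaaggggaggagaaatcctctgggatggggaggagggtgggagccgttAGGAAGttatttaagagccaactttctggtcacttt
F13a1 upstream start: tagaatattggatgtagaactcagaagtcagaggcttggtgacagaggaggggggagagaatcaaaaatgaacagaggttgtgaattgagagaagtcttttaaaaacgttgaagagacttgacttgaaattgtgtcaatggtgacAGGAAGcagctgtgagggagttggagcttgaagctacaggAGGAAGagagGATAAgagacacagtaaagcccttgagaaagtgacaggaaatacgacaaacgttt
The downstream stretch held AGGAAG 36 bases before the start and no GATAA. The upstream stretch held GATAA 55 bases before the start and AGGAAG at 65 and 105 bases before it. In all, 2 of the 6 stretches of the 5 genes held GATAA and 6 of 6 held AGGAAG.

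Among the other transglutaminase genes, Tgm2 and Tgm1 fell after the drug. Of 9 listed, 6 were tested; F13b, the carrier subunit of factor XIII, and Tgm5 were well above background on 0 arrays, and Epb42 on 2. Tgm2 encodes the widely expressed tissue transglutaminase and Tgm1 the keratinocyte enzyme. Tgm2 read 6.18, 3.96, 3.90 and 4.74 at 0 h, 1.87, 1.57, 0.75 and 0.09 at 48 h, and 1.22, -0.22 and 0.28 at 96 h. The groups did not overlap, with a log2 difference of -3.62 ± 0.57 (SE) at 48 h (limma adjusted p = 0.00423) and -4.27 ± 0.61 at 96 h (limma adjusted p = 0.00723), each against 0 h. Its other kept probe gave -3.31 and -3.82. Tgm1 differed by -0.999 ± 0.17 (adjusted p = 0.00616) and -0.87 ± 0.19 (adjusted p = 0.0235), the second call being lost in 4 of the 11 fits that left out 1 array (0 h replicate 3, 0 h replicate 4, 96 h replicate 1 or 96 h replicate 3). Tgm7 was well above background on 1 of 4 arrays at 0 h, 0 at 48 h and all 3 at 96 h, through which it passed the filter. Its call at 96 h against 0 h is therefore a description (1.77 fitted, limma adjusted p = 0.037), was lost in 9 of 11 such fits, and was 0.11 with normexp correction. The remaining 3 tested members were called in no comparison, and the median difference of the 6 was 0.26 at 48 h and 0.12 at 96 h. Against 0 h, 2 of 6 were called at 48 h and 3 of 6 at 96 h, where 18.6% and 9.54% of all features were called.

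**Figure D3:**
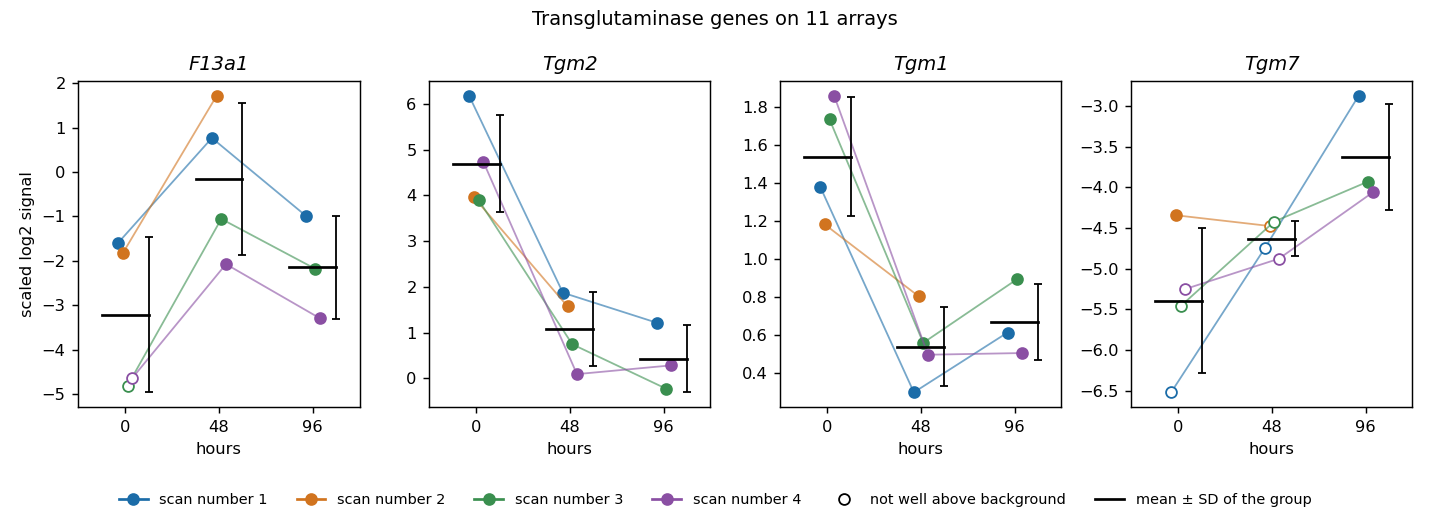
Scaled log2 signal (y axes) of F13a1, Tgm2, Tgm1 and Tgm7 on each array at 0, 48 and 96 hours (x axes); lines join the same scan number, open circles are not well above background, and bars give the mean ± SD. Tgm2 and Tgm1 lie below all their 0 h values after the drug, while F13a1 is highest at 48 h for each scan number.

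Markers of monocytes and macrophages, which also make factor XIII A, were read beside F13a1. Of 18 such markers 15 were tested, Mrc1 was well above background on 0 arrays and Cd163 on 1, and Ly6c2 had no probe. Their mean level per array was -1.03 to 0.32 at 0 h, -0.67 to 0.22 at 48 h and -0.94 to 0.10 at 96 h, so the groups overlapped. At 48 h against 0 h, where 10.4% of all features were higher and 8.16% lower, 0 of 15 were higher and 1 was lower. The lower marker was Fcgr1, the high-affinity IgG receptor (-3.71 ± 0.67 SE, limma adjusted p = 0.00727). The list as a whole did not follow Fcgr1. Its median change was 0.40 from 0 h to 48 h and -0.39 from 48 h to 96 h (all features 0.12 and 0.04). From 0 h to 96 h its median change was 0.005 (all features 0.11). As with F13a1, the mean level was higher in replicates 1 and 2 (0.32 and -0.21 at 0 h) than in replicates 3 and 4 (-1.03 and -0.61). The same order of replicates held at 48 h. With the block 4 were higher and 1 lower at 48 h, and 3 higher and 0 lower at 96 h against 0 h. The part of these cells in the F13a1 values was not tested.

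Among platelet adhesion receptor genes, which include the partners of Gp9 and Itga2b, Itgb3 was the 1 called with the 75th percentile scaling. Its call came at 96 h against 0 h, where 6.11% of all features were higher and 3.43% lower. Of 10 adhesion receptor genes 7 were tested, and 0 were called at 48 h against 0 h, where 18.6% of all features were. Itgb3, the beta subunit that pairs with Itga2b, read 0.82, 0.67 and 0.75 at 96 h, against -0.22, -0.10, -0.06 and 0.08 at 0 h. Its difference was 0.82 ± 0.18 (SE, limma adjusted p = 0.026), and its other kept probe gave 1.34; the call was lost in 5 of 11 fits that left out 1 array (0 h replicate 1, 0 h replicate 3, or any 96 h array) and with scaling to each array's median. Gp1bb, a partner of Gp9, differed by 0.31 (adjusted p = 0.342) at 48 h and -0.26 (adjusted p = 0.493) at 96 h. Gp5, another partner, was well above background on 1 array at 0 h, 0 at 48 h and 2 at 96 h, and Gp1ba was well above background on 0 arrays. The list's median was 0.20 at 48 h and 0.26 at 96 h against 0 h, but -0.02 and -0.13 with scaling to each array's median, where 0 were higher and 1 and then 2 lower. With that scaling the median of all features was itself -0.11 and -0.28.

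Platelet activation receptors were called in both directions at 48 h with the 75th percentile scaling. At 48 h against 0 h, 1 of 9 tested was called higher and 2 lower, with a median of -0.13. Among all features 10.4% were called higher and 8.16% lower there. F2rl3, the thrombin receptor PAR4, rose by 0.70 ± 0.16 at 48 h (SE, limma adjusted p = 0.0157; 0.48 with scaling to each array's median, adjusted p = 0.244). At 96 h it was 0.09 against 0 h (adjusted p = 0.773) and -0.62 against 48 h (adjusted p = 0.0446), the 1 call of the list there, which was lost with the block (adjusted p = 0.0766). P2rx1, the ATP-gated channel, differed by -0.55 ± 0.14 (adjusted p = 0.0245, lost in 5 of 11 fits that left out 1 array). Fcer1g, the signalling chain of the collagen receptor, was the other lower gene (-0.39), and its call was lost in each of the 11 fits that left out 1 array. Of the 9, 0 were called at 96 h against 0 h, with a median of -0.51, and 4 were lower with the block. With scaling to each array's median 0 were higher and 3 lower at 48 h (Fcer1g, P2rx1 and Ptgir), and 0 higher and 4 lower at 96 h (the same 3 genes and F2rl2), each against 0 h. The median of all features with that scaling was -0.11 and -0.28.

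Among 16 tested genes of platelet granule contents, 2 were called higher and 2 lower at 48 h against 0 h, with a median of 0.08. For all features the shares were 10.4% higher and 8.16% lower. Vwf, von Willebrand factor, the ligand of the Gp9 complex, read -1.55 to -0.16 at 48 h, against -2.54 to -1.83 at 0 h. The arrays did not overlap, and the difference was 1.14 ± 0.28 (SE, limma adjusted p = 0.0211; lost without 0 h replicate 3 or 48 h replicate 4); at 96 h it was 0.22 (adjusted p = 0.670). Clu, the chaperone clusterin, differed by 1.19 ± 0.34 (adjusted p = 0.0346). Thbs1, thrombospondin, read 4.58, 3.02, 3.05 and 3.50 at 0 h, 0.30, 0.16, -2.07 and -1.46 at 48 h, and 1.81, -4.26 and -3.24 at 96 h. All Thbs1 values at 48 h and 96 h lay below those at 0 h, and the difference was -4.31 ± 1.15 (limma adjusted p = 0.0289) at 48 h and -5.43 ± 1.24 (adjusted p = 0.0283) at 96 h, each lost in 5 of 11 fits that left out 1 array. Without 96 h replicate 1, the highest 96 h array, the 96 h difference was -7.29. Vps33b, which sorts granule cargo, differed by -0.36 at 48 h (adjusted p = 0.0349). Ppbp, the chemokine gene next in kind to Pf4, spread from -2.96 to 2.44 at 0 h and was not called (1.37 ± 1.31 at 48 h, adjusted p = 0.485; 1.24 ± 1.42 at 96 h, adjusted p = 0.592). Higher at 96 h than at 48 h were Nbeal2 (0.42, adjusted p = 0.0373) and F5 (1.04, adjusted p = 0.0493), but neither call held with the scan number as a block (adjusted p = 0.0573 and 0.0828), and the second probe of Nbeal2 gave 0.16 (adjusted p = 0.537). The second probe of F5 gave 1.51 (limma adjusted p = 0.0197). Against 0 h, the first and second probes of F5 gave -0.85 and -1.06 at 48 h, and 0.18 and 0.45 at 96 h.

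Tuba4a, which encodes an alpha-tubulin of platelets, also rose. It read 8.24, 8.08, 8.25 and 8.30 at 48 h, against 7.03, 7.65, 7.20 and 7.15 at 0 h. The arrays did not overlap, with a difference of 0.96 ± 0.13 (SE, limma adjusted p = 0.00276), and at 96 h it was 0.58 ± 0.14 (adjusted p = 0.0353, lost in 7 of 11 fits that left out 1 array). Of the 11 cytoskeleton genes tested 2 were higher and 0 lower at 48 h, the other being the formin gene Diaph1 (0.44, adjusted p = 0.0321), whose second probe gave 0.00. For 96 h against 0 h 2 were higher and 1 lower: Actn1, an actin cross-linker, differed by 1.08 ± 0.30 (adjusted p = 0.0475) and Tpm4, a tropomyosin, by -0.97 ± 0.27 (adjusted p = 0.0474), lost in 9 and in 10 of 11 fits that left out 1 array. Myl9, a myosin light chain, was higher at 96 h than at 48 h (0.88, adjusted p = 0.0423) and Tpm4 was lower (-0.97, adjusted p = 0.0422), lost in 9 and in 8 of 11 such fits. The list's median was 0.00 at 48 h and 0.16 at 96 h against 0 h. It held 2 of 11 genes called at 48 h and 3 of 11 at 96 h, where 18.6% and 9.54% of all features were called.

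Of 14 tested signalling and adaptor genes, 1 was higher and 2 lower at 48 h against 0 h, with a median of -0.19. For all features the shares there were 10.4% higher and 8.16% lower. Lcp2, the adaptor SLP-76, differed by -0.78 ± 0.17 (SE, limma adjusted p = 0.0146), and Rgs18, a regulator of G-protein signalling, by -0.67 ± 0.17 (adjusted p = 0.0237). Rasgrp2, the exchange factor that activates Rap1, differed by 0.41 ± 0.12 (adjusted p = 0.0367). Plcg2, a phospholipase, was the 1 gene called at 96 h against 0 h (0.50 ± 0.10, limma adjusted p = 0.0184), where 9.54% of all features were called. That call was lost without 96 h replicate 1 or 96 h replicate 3, and with scaling to each array's median (0.11, limma adjusted p = 0.704). Between 96 h and 48 h, Plcg2 (0.55, adjusted p = 0.0101), Fermt3 (0.61, adjusted p = 0.0175; lost without 96 h replicate 3) and Tln1 (0.38, adjusted p = 0.0333), the last 2 being activators of integrins, were higher at 96 h. The second probe of Tln1 gave -0.44 (adjusted p = 0.206), and its call was lost in 6 of 11 fits that left out 1 array. Among all features 5.27% were higher and 6% lower at 96 h against 48 h. Scaling to each array's median ended the calls of Plcg2 (0.39), Fermt3 (0.45) and Tln1 (0.22) there (limma adjusted p = 0.262, 0.263 and 0.531).

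Of 11 tested megakaryocyte transcription factors, 0 were higher and 2 lower at 48 h and at 96 h, each against 0 h, with medians of -0.33 and -0.15. The share called was 18.2% at both times, where 18.6% of all features were called at 48 h and 9.54% at 96 h. The counts at 48 h moved with the scaling. Runx1, a core factor of the lineage, differed by 0.29 (adjusted p = 0.0587) and was called higher in 4 of the 5 other scalings, in all but that to each array's median. Its second probe went the other way at 48 h against 0 h, with -0.44 (limma adjusted p = 0.0222), so the direction of Runx1 was not settled. By its first probe Runx1 was the 1 gene called, with 0 lower, where the 75th percentile was taken over probes bright on all arrays (0.36, adjusted p = 0.0224). With quantile normalization 3 were lower, and with scaling to each array's median 0 were called. Nfe2, which drives late megakaryocyte genes including Tubb1, read 6.42, 6.22, 6.68 and 6.70 at 0 h, 6.10, 6.11, 6.04 and 6.00 at 48 h, and 5.91, 6.02 and 5.63 at 96 h. Both later groups lay below the 0 h arrays, with differences of -0.44 ± 0.13 (SE, limma adjusted p = 0.0408) and -0.65 ± 0.14 (adjusted p = 0.0242), lost in 8 and in 4 of 11 fits that left out 1 array; the 48 h call was also lost with the block (adjusted p = 0.0548). Ldb1, a bridging cofactor, differed by -0.33 ± 0.08 at 48 h (adjusted p = 0.0224) and Gata2, a progenitor factor, by -0.81 ± 0.19 at 96 h (adjusted p = 0.0301). Gata1 differed by 0.13 at 48 h (adjusted p = 0.806), Fli1 by 0.03 (adjusted p = 0.843), Gfi1b by 0.43 (adjusted p = 0.293) and Zfpm1 by -0.28 (adjusted p = 0.438). Runx1 was lower at 96 h than at 48 h (-0.48, adjusted p = 0.0192), a call lost without 96 h replicate 1 or 96 h replicate 3, and its second probe gave 0.26 (adjusted p = 0.183) there.

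Coagulation and fibrinolysis genes included 5 that were higher at 48 h. Of 25 genes 16 were tested, and at 48 h against 0 h 5 were higher and 0 lower, with a median of 0.41. Among all features 10.4% were higher and 8.16% lower at 48 h, and 6.11% and 3.43% at 96 h, each against 0 h. S100a10, a subunit of a plasminogen receptor, differed by 0.95 ± 0.13 (SE, limma adjusted p = 0.00247) at 48 h against 0 h and by -1.42 ± 0.14 (adjusted p = 0.0022) at 96 h against 48 h. Thbd, thrombomodulin, differed by 1.15 ± 0.30 (adjusted p = 0.0269) at 48 h and 1.24 ± 0.33 (adjusted p = 0.042) at 96 h against 0 h. F10, factor X, differed by 0.56 (adjusted p = 0.0339) and 0.74 (adjusted p = 0.0281), its second probe giving 1.14 and 0.14. Leaving out 1 array ended the Thbd call in 5 of 11 fits at 48 h and 9 of 11 at 96 h. The F10 call was lost in 5 of 11 such fits at each time. Proc, protein C, was the remaining gene higher at 96 h against 0 h (0.86, adjusted p = 0.0364, lost in 7 of 11 such fits). That made 3 higher and 0 lower of 16 at 96 h, with a median of 0.21. With scaling to each array's median there were 0 higher and 2 lower at 96 h against 0 h. The list's median was then -0.18, where that of all features was -0.28.

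**Figure D4:**
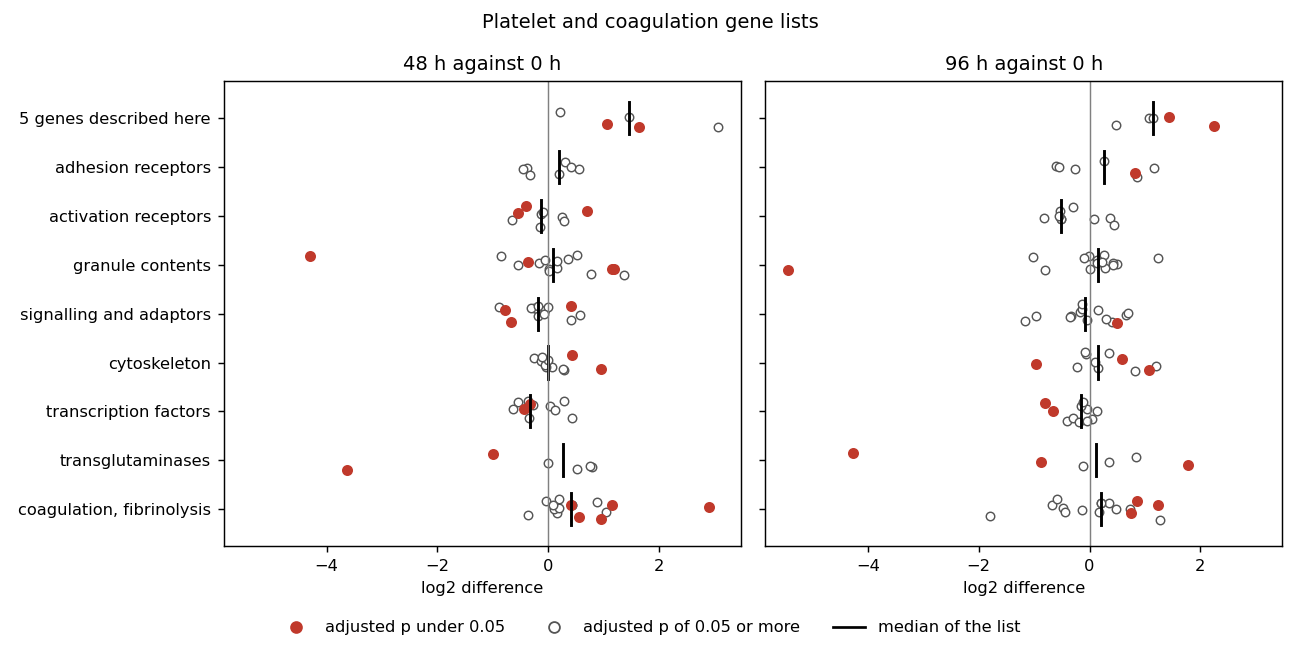
Log2 difference (x axes) of each tested gene in the 5-gene set and in 8 lists (rows) at 48 h (left) and 96 h (right), each against 0 h; filled points have an adjusted p under 0.05 and vertical bars give the list medians. The medians of the 5 genes are 1.46 and 1.15, and those of the lists lie between -0.33 and 0.41 at 48 h and between -0.51 and 0.26 at 96 h.

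Among the 95 tested genes of the 5-gene set and the lists, 24.2% were called at 48 h and 16.8% at 96 h, each against 0 h. The shares of all features were 18.6% and 9.54%. For 96 h against 48 h the shares were 11.6% of the 95 and 11.3% of all features. Many of the calls among these lists lay near the threshold. Of 46 calls outside the 5 genes, 10 held in every alternative that could test them (23 or 24 each), among them Lcp2, Tuba4a, Tgm2, Tgm1, S100a10 and Fcgr1 at 48 h against 0 h, Tgm2 at 96 h against 0 h, and S100a10 at 96 h against 48 h. Leaving out 1 array ended 34 of the 46 calls at least once. Without 96 h replicate 1, 12 of 14 calls at 96 h against 0 h were lost, all but Tgm2 and Thbs1, and 7 of 11 at 96 h against 48 h. With scaling to each array's median, 4 genes of the 5-gene set and the lists were higher and 10 lower at 48 h against 0 h (13 and 10 with the 75th percentile), and 2 higher and 18 lower at 96 h against 0 h (10 and 6). That scaling also cut the higher calls of all features at 48 h, and it moved their medians to -0.11 at 48 h and -0.28 at 96 h. The share of all features called at 96 h with it is not given here. These counts are therefore not read as a result about the lists. With the other 5 scalings, 8 calls held under at most 1: Clu and F10 at 48 h, Tpm4, Actn1, Tgm7 and Proc at 96 h against 0 h, and Nbeal2 and Myl9 at 96 h against 48 h.

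Markers of other cell types were read on the same arrays. Among all features 10.4% were higher and 8.16% lower at 48 h, and 6.11% and 3.43% at 96 h, each against 0 h. Of the 10 granulocyte-monocyte progenitor markers 4 were higher and 0 lower at 48 h against 0 h, and 3 higher and 0 lower at 96 h against 0 h, Mpo being 4.33 ± 0.52 (SE, limma adjusted p = 0.00198) and 5.18 ± 0.56 (adjusted p = 0.00266) higher. Of 12 mature neutrophil markers 2 were higher at 48 h and 4 at 96 h, with 0 lower, and their mean level per array was 3.39 to 5.02 at 96 h, against 0.63 to 2.87 at 0 h. Of 8 tested erythroid markers, a lineage that shares a progenitor with megakaryocytes, 3 were higher and 1 lower at 48 h, and 2 higher and 1 lower at 96 h. The part of these programmes in the values of Tubb1, Gp9, Pf4, Itga2b and F13a1 was not tested.

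Across the 11 arrays, Pearson's r of the scaled log2 signal between members was 0.78 for Tubb1 and Gp9, 0.68 for Gp9 and Pf4, 0.67 for Tubb1 and Pf4, 0.66 for Pf4 and F13a1, and 0.08 for Itga2b and F13a1. These r are descriptions over 11 arrays that share times, slides and lines. Among all tested genes with a symbol, those most like Tubb1 were Limk2 (r = 0.97), Srpk2 (0.96) and Chd1l (0.95). Those most like Gp9 were Wnt16 (0.95), Pglyrp1 (0.94) and Ak8 (0.94), and for Pf4 they were Adamts14 (0.96), Klk1b3 (0.91) and Vmn1r18 (0.90). Itga2b was most like C1ql2 (0.92), Syt8 (0.89) and Teddm1a (0.88). F13a1 was most like Jchain (0.97), Cmtm4 (0.93) and Spef1l (0.93). No other member was among the 3 genes most like any member.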

How the data were processed

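RNA from 11 samples was read on 11 1-colour (Cy3) Agilent arrays. Per the file headers, Agilent Feature Extraction 11.0.1.1 wrote the deposited processed signal, a spot intensity with background subtracted and spatial trends removed within the array, and 0 or 1 flags for other spot properties (well above background, outlier, saturated). The authors' deposited table of the whole series is in log2; the submitters' processing notes name limma, with no version. The array number, 3 or 4 per group, limits the precision.

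Control and outlier spots were left out of 62976 spots per array, and 0 other spots were saturated. Spots of a probe were averaged (55681 probes), and 34273 probes, bright enough to be flagged well above background on 3 or more arrays, were kept. Unversioned accessions were looked up in a RefSeq table (GRCm38.p6): 27656 probes had 1 symbol, 0 had several and 28025 had none. The probe with the highest mean stood for a gene, which left 25082 genes or features, 14999 with a symbol. limma 3.58.1 (R 4.3.3, lmFit and eBayes, 2-sided) was fitted on all 11 arrays in 3 groups (8 residual degrees of freedom), with Benjamini-Hochberg adjustment over all features, and tested on simulated data. Errors are SE of differences or SD over arrays.

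The numbers in the scans' names paired the arrays: correlations of deviations from group means were 0.115 to 0.356 in all 10 pairs, above 0.1 in each. Replicate numbers in the sample titles, which differ at 96 h, gave -0.04 to 0.36.

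Named were the members, list genes called in a comparison (at most 4 per list and comparison, by adjusted p), genes whose role needed a value, and the 3 genes with the highest Pearson r to each member. The members and lists were chosen with earlier results of these data known. Alternatives were other scalings (median, 75th percentile of bright probes, quantile, normexp with an offset of 50, the deposited table), other filters, mean of probes, array weights, slide row, fewer groups, blocks and each array left out. Some list genes counted here are not reported by name.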

Additional observations from a re-analysis of the deposited data

Results flagged for a closer look

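Of 86 groups of 4 arrays checked over 43 genes (the members and the list genes with values by array), 3 held an array whose gap to its nearest neighbour, as a share of the group's range, passed Dixon's limit of 0.829, and chance alone flags about 1 in 20 such groups. No member was among them. Gata1 read -3.42 on 48 h replicate 1, with the other 48 h arrays at -2.39 to -2.29. Gata2 read 1.34 on 0 h replicate 2, with the other 0 h arrays at 1.82 to 1.90. F2rl3 read -0.92 on 0 h replicate 2, with the other 0 h arrays at -1.41 to -1.33.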

How the results depend on the processing

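Differences below are log2, and adjusted p-values are limma's. Scaling to each array's median gave 2352 called features at 48 h against 0 h (main 4659) and 899 at 96 h against 48 h (main 2828), 14 and 4 called list genes (main 23 and 11 of 95 tested), a Gp9 difference of 0.84 (adjusted p = 0.0691) and an Itga2b difference of -0.00315 at 48 h. Under normexp correction and in the authors' deposited table, 48 h differences were 0.0960 and 0.0976 for Tubb1, 0.981 and 0.998 for Pf4 (adjusted p = 0.0499 in both) and -0.00827 and -0.00841 for Itga2b, and Tubb1 at 96 h against 0 h was 0.14 and 0.15. Without a filter, 2655, 925 and 1388 features and 11, 4 and 4 list genes were called for 48 h against 0 h, for 96 h against 0 h, and for 96 h against 48 h. With only probes bright on all arrays Pf4 at 48 h was 1.46 (adjusted p = 0.046), and array weights gave F13a1 3.38 (adjusted p = 0.0362). The mean of a gene's probes turned Tln1 at 96 h against 48 h to -0.0320.

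The replicate block by scan number called 28 list genes at 96 h against 0 h (main 16), and for F13a1 gave 3.06 (adjusted p = 0.00562), 1.61 (0.0301) and -1.44 (0.0412) in the same order; it changed no other member's call. By title number the block called 1485 and 1604 features and 7 and 4 list genes in the comparisons with 96 h, and gave Pf4 1.46 (adjusted p = 0.0452) and F13a1 3.06 (0.00916) at 48 h and F13a1 -2.55 (0.0256) at 96 h against 48 h. The block in a fit of only the groups compared, chosen after seeing the data, called 2734, 2 and 0 features (0 where 7559 had an unadjusted p under 0.05) and 0 list genes at 96 h against 0 h and 96 h against 48 h (45 and 29 unadjusted), with Tubb1 2.23 (adjusted p = 0.10) and Gp9 1.42 (0.0816) at 96 h against 0 h and F13a1 3.06 (0.0207) at 48 h. Without a block, only the groups compared gave 399 features and 5 list genes at 96 h against 0 h and 7 list genes at 96 h against 48 h, and slide row as a term gave 5 list genes there. With the block kept, also chosen after seeing the data, F13a1 at 96 h against 0 h was 1.36 with quantile normalization, 0.560 with normexp, 0.569 in the deposited table and 1.61 without a filter (adjusted p 0.0523, 0.251, 0.25 and 0.0686), and at 96 h against 48 h -0.945, -0.961 and -1.44 with the last 3 (adjusted p 0.0634, 0.0628 and 0.0918). The cause was not tested for these changes, except that tests over more features or fewer arrays have less room by construction.

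Leaving out each array gave 2459 to 5435, 705 to 3284 and 1010 to 2965 called features, and 9 to 28, 2 to 19 and 3 to 12 list genes, in the same order of comparisons. The lowest counts came without 48 h replicate 4, 96 h replicate 2 and 96 h replicate 1 for features, and without 48 h replicate 4, 96 h replicate 3 and 96 h replicate 3 for list genes. The F13a1 difference at 48 h ranged from 2.43 to 3.70, Gp9 at 96 h against 0 h from 1.22 to 1.57, and blocked F13a1 from 1.27 to 1.95 and from -1.78 to -1.12 in the comparisons with 96 h. Itga2b was -0.0827 without 0 h replicate 2 at 48 h (up to 0.39), and -0.24 and -0.46 without 96 h replicate 1 in the comparisons with 96 h (up to 0.84 and 0.62), and Pf4 at 96 h against 48 h ranged from -0.61 to 0.00625, that last value without 96 h replicate 3. Slide as a block was not run, since 96 h lies alone on its slide. Dim signal limits Tubb1 and the 0 h values of F13a1.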
